A study of Mus musculus with 18 samples.

Results

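The genes described here encode 10 ligands of the tumor necrosis factor (TNF) superfamily: Tnfsf10 (TRAIL), Fasl, Tnf, Lta, Ltb, Tnfsf4 (OX40 ligand), Tnfsf8 (CD30 ligand), Tnfsf9 (4-1BB ligand), Tnfsf11 (RANKL) and Tnfsf14 (LIGHT). They were taken by symbol from both gene count tables of a mouse study of liver metastasis. All 10 had a row among the 54309 genes of the lymphocyte table, where 9 passed the filter on low counts and Tnfsf11 did not. The macrophage table held 8 of them among 13759 genes, with no row for Fasl or Tnfsf11.

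C57BL/6J mice received MC38 cells, a mouse colon adenocarcinoma line, by injection into the spleen, which seeds tumors in the liver. From the liver metastases (LM) and the metastasis-free liver (MFL) of female mice, 4 lymphocyte populations were sorted as live lin- CD45+ NKp46+ cells, with 3 libraries each, every library from 6 to 8 pooled samples. They were the CD49a-CD49b+ NK cells of MFL (MFL NK) and of LM (LM CD49a- NK), the CD49a+CD49b+ NK cells of LM (LM CD49a+ NK) and the CD49a+CD49b- type 1 innate lymphoid cells of MFL (MFL ILC1). A separate set of 6 libraries held metastasis-associated macrophages (MAM), sorted from LM as CD45+CD11b+ cells with high or low F4/80 (F4/80hi and F4/80low), 3 libraries each. Every mouse carried MC38 tumors, so MFL is the uninvolved tissue of a tumor-bearing animal and not that of a healthy one. The LM tissue was digested with enzymes while the MFL was only pressed and filtered, so in every contrast of LM with MFL the site and the dissociation cannot be told apart.

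TNF superfamily ligands work as trimers, and most are made as membrane proteins, several of which are also shed as soluble forms. TRAIL, Fas ligand and TNF bind receptors with a death domain and can trigger apoptosis, and TRAIL is a known feature of liver ILC1. The lymphotoxins organize lymphoid tissue through the lymphotoxin beta receptor, and OX40, CD30 and 4-1BB ligand and LIGHT give costimulatory signals to lymphocytes, mostly through NF-κB.

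The 250 bases before the annotated start of Tnfsf10, Ltb and Tnfsf8 are shown because these were the 3 ligand genes that were higher in MFL ILC1 than in MFL NK. They were read from GRCm39 with the GENCODE vM39 starts, at chr3:27370783-27371032 (plus strand) for Tnfsf10, chr17:35413132-35413381 (plus strand) for Ltb and chr4:63779593-63779842 (minus strand) for Tnfsf8. Each window lies before the outermost annotated start, so no annotated transcript of the same gene reaches into it. Capitals mark a match, on either strand, to 1 of 4 motifs: AP-1 (TGANTCA), the RUNX core (TGTGGT), the T-box site (AGGTGT) and the κB consensus. No capitals belong to more than 1 match.
Tnfsf10: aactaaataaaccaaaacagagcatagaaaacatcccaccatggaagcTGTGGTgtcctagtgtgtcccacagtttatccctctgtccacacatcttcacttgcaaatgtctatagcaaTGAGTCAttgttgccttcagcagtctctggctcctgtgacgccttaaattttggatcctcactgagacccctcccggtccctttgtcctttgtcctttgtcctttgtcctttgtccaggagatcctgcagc
Ltb: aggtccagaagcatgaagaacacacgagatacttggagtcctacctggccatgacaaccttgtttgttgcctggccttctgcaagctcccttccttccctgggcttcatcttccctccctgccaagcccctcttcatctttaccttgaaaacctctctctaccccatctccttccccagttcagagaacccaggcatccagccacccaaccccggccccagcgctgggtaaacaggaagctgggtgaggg
Tnfsf8: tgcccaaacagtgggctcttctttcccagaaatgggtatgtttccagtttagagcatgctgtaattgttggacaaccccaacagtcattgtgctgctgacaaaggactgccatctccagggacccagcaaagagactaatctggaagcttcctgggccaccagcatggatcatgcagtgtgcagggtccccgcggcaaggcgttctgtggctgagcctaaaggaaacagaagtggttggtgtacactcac
The Tnfsf10 window held 1 AP-1 match, which begins 131 bases before the start, and 1 RUNX match, which begins 202 bases before it. No match to the 4 motifs was found in the Ltb and Tnfsf8 windows. Of the 21757 windows of protein-coding genes read in the same way, 6.46% held an AP-1 match, 13.8% a RUNX match, 13.2% a T-box match and 3.93% a κB match. Among the other ligand genes, an AP-1 match stood before Tnfsf14 and a T-box match before Tnf. These matches describe the letters of the windows, and their use in these cells was not tested.

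The ligand genes lie on 5 chromosomes in GRCm39. Ltb, Tnf and Lta sit side by side within 10946 bases of chromosome 17 (35413382 to 35424327), and Tnfsf9 and Tnfsf14 lie within 88880 bases of the same chromosome (57412298 to 57501177). Tnfsf4 and Fasl are both on chromosome 1, while Tnfsf10 lies on chromosome 3 (27371033 to 27396576, plus strand), Tnfsf8 on chromosome 4 and Tnfsf11 on chromosome 14. Ltb, Tnfsf9 and Tnfsf14 each overlap a gene on the opposite strand in vM39. Both kits keep the strand, but whether the counting used it is not given in the sources used here.

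The lymphocyte libraries held 8795721 to 14386834 counts and the macrophage libraries 21278959 to 32267015. The sorted populations carried their defining transcripts: Itga1, which encodes CD49a, averaged 663 CPM (counts scaled to the library total) in MFL ILC1, 134 in LM CD49a+ NK and 11.4 to 11.5 in both CD49a- populations, and Eomes, the NK lineage factor, averaged 20.3 CPM in MFL ILC1 and 668 in MFL NK. Adgre1, which encodes F4/80, averaged 958 CPM in F4/80hi and 146 CPM in F4/80low MAM. Values below are CPM after TMM scaling, listed for replicates 1, 2 and 3. Fold changes are log2 values ± SE from edgeR's quasi-likelihood test, called at an adjusted p under 0.1 over all genes of the table. The lymphocyte pools came from 3 separate sorts, per the study's description, without a record of which library came from which sort, and for the macrophage libraries the sources used here do not say whether they came from separate animals. The p-values therefore measure the spread between these libraries.

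Tnfsf10 was called in 4 of the 6 lymphocyte contrasts, more than any other ligand gene. It encodes TRAIL, the death ligand that binds Tnfrsf10b (DR5). The MFL NK libraries held 16.3, 13.9 and 11.9 CPM of Tnfsf10, and the MFL ILC1 libraries held 368, 449 and 430 CPM. The LM CD49a- NK libraries held 37.7, 9.20 and 13.8 CPM, and the LM CD49a+ NK libraries held 53.7, 105 and 55.0 CPM. Every ILC1 library was above every NK library, every LM CD49a+ NK library was above every CD49a- one, and the 2 CD49a- populations overlapped. The order of the group means was therefore MFL ILC1 (416 ± 42.6, SD, n = 3), LM CD49a+ NK (71.2 ± 29.2), LM CD49a- NK (20.2 ± 15.3) and MFL NK (14.1 ± 2.22), in which only the last 2 neighbours overlapped.

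**Figure D1:**
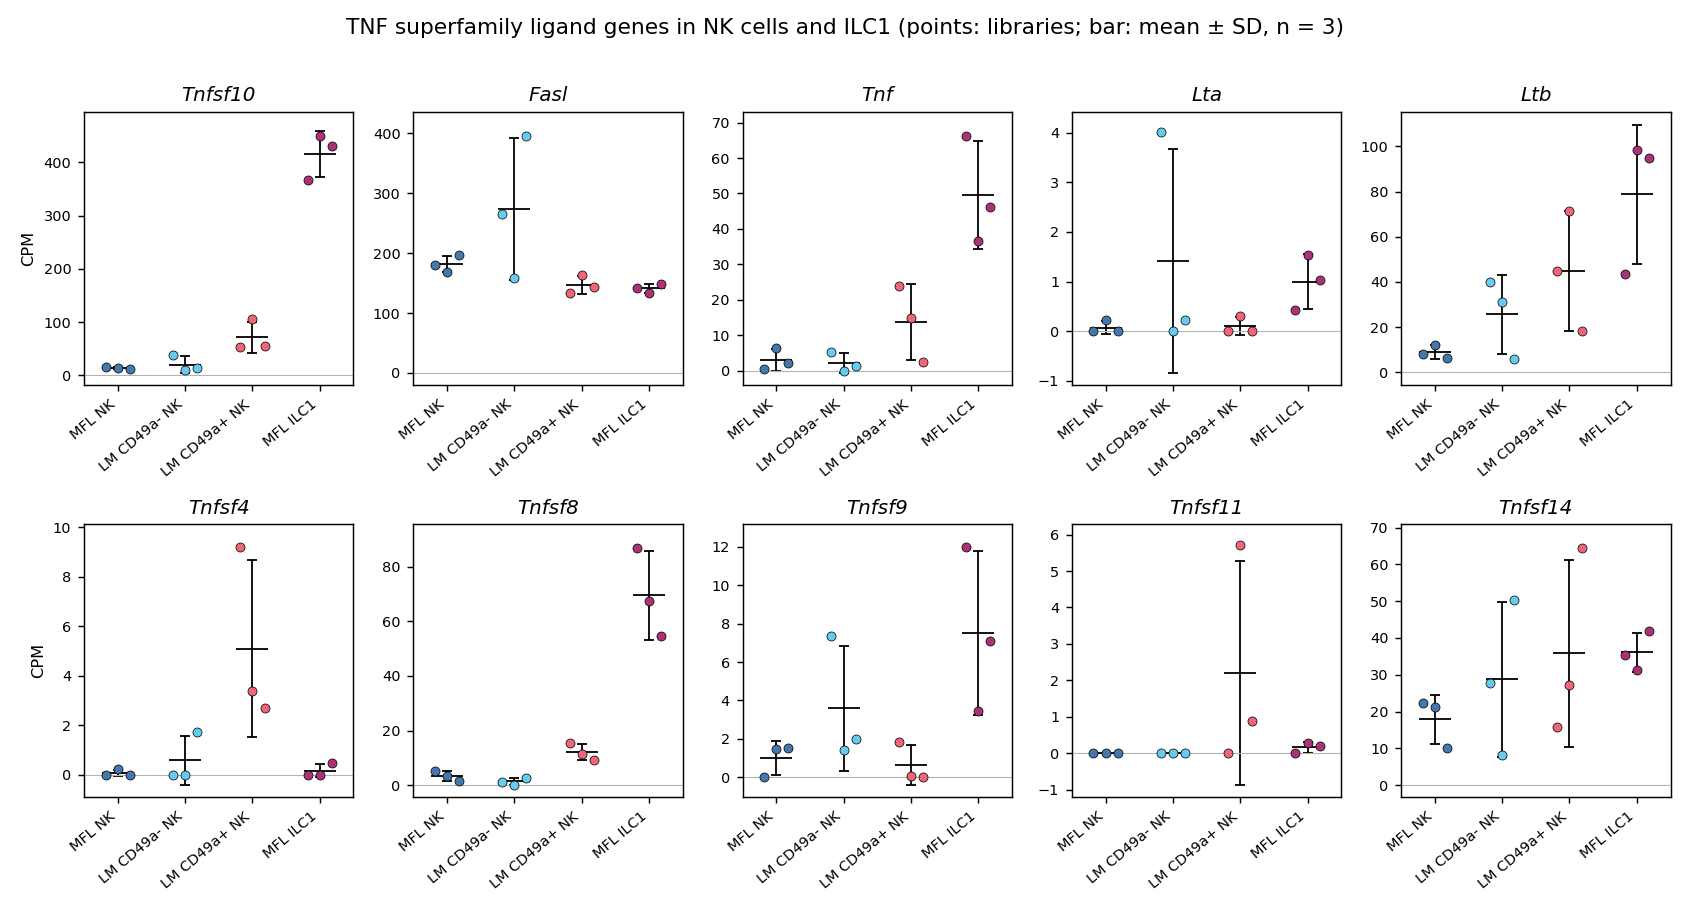
Level of each of the 10 ligand genes in CPM (y axis, linear, its own scale per gene) in the 12 lymphocyte libraries, by sorted population (x axis). Points are libraries and bars are mean ± SD of 3 libraries, so bars that reach below 0 are a property of the SD and not a level. Tnfsf10, Tnf and Tnfsf8 stand highest in MFL ILC1 with LM CD49a+ NK next, while Fasl is well above 0 in every library.

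For the difference between MFL ILC1 and MFL NK, which asks what sets the resident from the circulating type in uninvolved liver, 3 of the 9 tested ligand genes were called, all of them higher in ILC1, against 3.06% of all 13594 genes tested (1.38% higher). Tnfsf10 rose by 4.89 ± 0.46 (adjusted p = 6.22e-06), Tnfsf8 by 4.42 ± 0.88 (adjusted p = 0.00699) and Ltb by 3.14 ± 0.67 (adjusted p = 0.0121). The median of the 9 ligand genes was 3.14, and that of all genes was 0.01. Positive values were seen for 8 of the 9, and Fasl was the exception at -0.36 ± 0.27 (adjusted p = 1.00). The ILC1 libraries of Fasl stood below those of MFL NK, and limma-voom called it lower (-0.35, adjusted p = 0.0889).

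Tnfsf10 was also higher in LM CD49a+ NK than in MFL NK (2.34 ± 0.42, adjusted p = 0.0182), the single ligand gene called there among 9, where 0.647% of all genes were called. That call was lost without replicate 3 of MFL NK (adjusted p = 0.117). LM CD49a+ NK stayed below MFL ILC1 (-2.54 ± 0.42, adjusted p = 0.00187), again the single ligand gene called, where 3.58% of all genes were called. Within the metastasis, Tnfsf10 in CD49a+ against CD49a- NK gave 1.82 ± 0.41 with an adjusted p of 0.151 and was not called. No ligand gene was called in that contrast by edgeR's test, where 0.14% of all genes were called. An unadjusted p under 0.05 was seen for 4 of the 9 ligand genes and for 1579 of all 13594 genes. In this contrast DESeq2 called 3 ligand genes, among 543 of 13594 genes called in all, and limma-voom called 0 genes. Tnfsf10 passed there with DESeq2, the tool of the study's methods (1.79, adjusted p = 0.00651), and with edgeR when replicate 1 of LM CD49a- NK, the library at 37.7 CPM, was left out (2.63, adjusted p = 0.0094).

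The 2 differences between CD49a+ and CD49a- cells were compared directly. For Tnfsf10 the step within LM was smaller than the ILC1 to NK step in MFL by 3.07 on the log2 scale (-3.07 ± 0.57, adjusted p = 0.0165), and it was the single ligand gene called for this difference, where 1.03% of all genes were called. The populations on either side are not the same cells, since the MFL ILC1 lacked CD49b and the LM CD49a+ NK carried it. LM CD49a- and MFL NK gave no ligand gene called by edgeR's test, DESeq2 or limma-voom, with 0.0736% of all genes called by edgeR. There 2 of the 9 ligand genes, Fasl and Ltb, had an unadjusted p under 0.05, as did 914 of all 13594 genes. Tnfsf10 was at 0.52 ± 0.40 between those populations (adjusted p = 0.926).

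Contrasts of LM with MFL moved together with stress genes, hepatocyte RNA and dendritic cell genes. The list of 18 immediate-early and heat-shock genes summed to 8268 to 13563 CPM in LM CD49a+ NK and 8438 to 16477 in LM CD49a- NK, against 6301 to 7886 in MFL NK and 5316 to 8238 in MFL ILC1. The 4 hepatocyte genes summed to 17.5 to 88.0 CPM in MFL NK and 28.8 to 66.6 in MFL ILC1, and to 0 to 13.1 in the LM populations. The 5 dendritic cell genes summed to 11.6 to 82.0 CPM in LM CD49a- NK and 14.3 to 46.4 in LM CD49a+ NK. They summed to 5.31 to 10.2 in MFL NK and 0 to 5.59 in MFL ILC1, and neither of the 2 tested was called between LM and MFL. The part of these lists in the Tnfsf10 and other ligand values was not tested. In the contrast of MFL ILC1 with MFL NK the sums of each of these lists overlapped. There 1 of the 18 immediate-early and heat-shock genes was called lower in ILC1, and no hepatocyte or dendritic cell gene was called. Other lists moved in that contrast. The 3 monocyte genes, all detected, summed to 143 to 277 CPM in MFL ILC1, 1157 to 1426 in MFL NK, 933 to 1553 in LM CD49a- NK and 808 to 1204 in LM CD49a+ NK. Of these, 2 were called lower in ILC1 than in MFL NK, among them Ly6c2, which NK cells express too, and all 3 were called higher in LM CD49a+ NK than in ILC1. The 6 macrophage genes summed to 41.2 to 162 CPM in MFL ILC1, 780 to 1176 in MFL NK, 784 to 921 in LM CD49a- NK and 136 to 348 in LM CD49a+ NK. Itgam, also an NK cell gene, made up 936 CPM of the MFL NK mean and 39.6 of the ILC1 mean, and Adgre1 was at 0 in both LM populations. The 7 T cell genes, all detected in ILC1, summed to 247 to 681 CPM in MFL ILC1 and 4.98 to 35.7 in the NK populations. Of the 5 tested between MFL ILC1 and MFL NK, 1 was called higher in ILC1 and all 5 had positive values, with a median of 5.28. Cd3g made up 472 CPM of the ILC1 mean, with Cd3d at 2.27 CPM, Trac at 5.50, Cd4 at 3.29 and Cd8a at 4.87. The lin- gate of the sort was set against CD3+ cells. Fewer cells of a type and less RNA per cell cannot be told apart in such pools. The part of the monocyte, macrophage and T cell lists in the ligand values was not tested.

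Fasl, the ligand of the death receptor Fas, showed another pattern. It stood at 180, 169 and 196 CPM in MFL NK, 265, 159 and 396 CPM in LM CD49a- NK, 134, 163 and 143 CPM in LM CD49a+ NK and 143, 133 and 149 CPM in MFL ILC1. The LM CD49a- NK libraries spread the most and reached the highest values, and those of LM CD49a+ NK and MFL ILC1 overlapped. The difference between these last 2 was 0.05 ± 0.27 (adjusted p = 0.977), which leaves a change as large as that of Tnfsf10 well outside its error. LM CD49a+ against CD49a- NK gave -0.90 ± 0.27 (adjusted p = 0.286), which passed with DESeq2 (-0.91, adjusted p = 0.0719) and without replicate 2 of LM CD49a- NK (-1.17, adjusted p = 0.0554).

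Tnf, the inflammatory cytokine that signals through Tnfrsf1a and Tnfrsf1b, was at 66.3, 36.5 and 46.1 CPM in MFL ILC1. It was at 0.572, 6.49 and 2.20 CPM in MFL NK, 5.35, 0 and 1.18 CPM in LM CD49a- NK and 23.8, 14.8 and 2.39 CPM in LM CD49a+ NK. Each ILC1 library was above all 9 NK libraries, and the NK populations overlapped among themselves. The ILC1 to NK difference was 4.00 ± 1.29 with an adjusted p of 0.162, not called by the main test. It passed with DESeq2 (4.05, adjusted p = 0.00757) and when the 2 groups were fitted alone (3.98, adjusted p = 0.0082). Macrophages make Tnf too. Of the 4 macrophage genes tested between MFL ILC1 and MFL NK, 3 had positive values in ILC1, none of them called. Itgam, also an NK cell gene, was called lower in ILC1. Among the rest, Lyz2 was at 31.4 ± 46.7 CPM in ILC1 and 1.53 ± 1.44 in MFL NK and Csf1r at 5.83 ± 8.71 and 1.61 ± 1.72 (SD, n = 3), and for both the libraries overlapped. The part of macrophage RNA in the Tnf values was not tested.

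The lymphotoxin genes differed from each other although they lie next to Tnf. Ltb, the membrane anchor of the lymphotoxin heterotrimer, was at 43.4, 98.4 and 94.7 CPM in MFL ILC1 and at 8.25, 12.2 and 6.31 CPM in MFL NK, with no overlap. In the metastasis it was at 39.8, 31.2 and 6.07 CPM in CD49a- NK and 44.7, 71.3 and 18.1 CPM in CD49a+ NK, which overlapped with each other and, for the CD49a+ cells, with ILC1. Ltb in LM CD49a+ NK against MFL NK gave 2.32 ± 0.65 (adjusted p = 0.193), called with DESeq2 (2.36, adjusted p = 0.0219). Lta, the soluble partner, was close to the detection limit, with 36, 0 and 3 reads in LM CD49a- NK, 5, 21 and 11 in MFL ILC1, 0, 3 and 0 in MFL NK and 0, 4 and 0 in LM CD49a+ NK. Its ILC1 to NK value of 3.57 ± 2.48 had an adjusted p of 1.00 and was called with limma-voom (3.32, adjusted p = 0.0201), and 36 of the 39 reads of LM CD49a- NK came from 1 library.

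Tnfsf8, like Tnfsf10, was highest in MFL ILC1 and next in LM CD49a+ NK, at lower levels, while the order of the 2 CD49a- populations, which overlapped, was the other way round. CD30 ligand was at 86.8, 67.5 and 54.5 CPM in MFL ILC1, 15.3, 11.6 and 9.37 CPM in LM CD49a+ NK, 5.06, 3.24 and 1.39 CPM in MFL NK and 1.34, 0.111 and 2.76 CPM in LM CD49a- NK. The ILC1 libraries stood above all others and those of LM CD49a+ NK above both CD49a- populations. LM CD49a+ against CD49a- NK gave 3.08 ± 0.84 (adjusted p = 0.280) and LM CD49a+ NK against MFL ILC1 gave -2.53 ± 0.80 (adjusted p = 0.139). DESeq2 called both, at 3.07 (adjusted p = 0.00672) and -2.52 (adjusted p = 0.0138).

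Tnfsf4, whose product binds OX40 on T cells, was highest in LM CD49a+ NK. Those libraries held 95, 43 and 27 reads (9.20, 3.36 and 2.69 CPM), against 0, 0 and 22 reads in LM CD49a- NK, 0, 3 and 0 in MFL NK and 0, 0 and 5 in MFL ILC1. The CD49a+ libraries did not overlap with any other population. No contrast was called by the main test, at 5.90 ± 2.84 against MFL NK (adjusted p = 0.520), 4.94 ± 2.72 against MFL ILC1 (adjusted p = 0.462) and 3.10 ± 2.48 against LM CD49a- NK (adjusted p = 0.686). Summed over the libraries, 165 reads against 3 in MFL NK gave a ratio per total counts of 64.6 with an exact 95% interval of 21.7 to 316, which covers counting error only and not the spread between pools. limma-voom called the contrasts with MFL NK (adjusted p = 0.0773) and MFL ILC1 (adjusted p = 0.045).

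Tnfsf11, which drives osteoclasts and lymph node development through RANK, was listed at 0 in the 6 libraries of MFL NK and LM CD49a- NK. LM CD49a+ NK held 0, 73 and 9 reads and MFL ILC1 held 0, 4 and 2. It did not pass the filter and was not tested. Against the limit of 3 reads over the group, the summed reads of LM CD49a+ NK were at least 32.1-fold higher than in MFL NK, and 73 of the 82 reads came from replicate 2.

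Tnfsf9 and Tnfsf14 were not called in any lymphocyte contrast by the main test. Tnfsf9, the ligand of 4-1BB, was at 12, 3.44 and 7.11 CPM in MFL ILC1 and between 0 and 7.35 CPM in the 9 NK libraries, with an ILC1 to NK value of 2.89 ± 2.04 (adjusted p = 1.00). Tnfsf14, the ligand of the lymphotoxin beta receptor and HVEM, was at 35.4, 31.3 and 41.8 CPM in MFL ILC1, 22.4, 21.2 and 10.2 CPM in MFL NK, 27.7, 8.09 and 50.3 CPM in LM CD49a- NK and 15.7, 27.3 and 64.5 CPM in LM CD49a+ NK. The spread within each LM population was wider than the distance between the group means. Its ILC1 to NK value was 1.01 ± 0.65 (adjusted p = 1.00). For both genes the ILC1 libraries stood above those of MFL NK, and limma-voom called both differences (adjusted p = 0.0826 for Tnfsf9 and 0.0234 for Tnfsf14).

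Between genes, levels were set side by side as CPM per kb of exon, a quantity that removes gene length. Fasl led the 3 NK populations, at 93.3 ± 7.0 in MFL NK, 140.3 ± 60.8 in LM CD49a- NK and 75.2 ± 7.66 in LM CD49a+ NK, with no overlap with the next gene. In MFL ILC1 Tnfsf10 (76.9 ± 7.88) and Fasl (72.5 ± 4.11) stood together and overlapped, followed by Ltb (50.9 ± 19.9) and Tnf (30.3 ± 9.27), which also overlapped. By its mean, Tnfsf10 ranked below Fasl, Ltb and Tnfsf14 in each NK population, at 2.60 ± 0.41 in MFL NK, 3.74 ± 2.82 in LM CD49a- NK and 13.2 ± 5.40 in LM CD49a+ NK. Its libraries overlapped those of Ltb and Tnfsf14 in both LM populations and not in MFL NK.

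**Figure D2:**
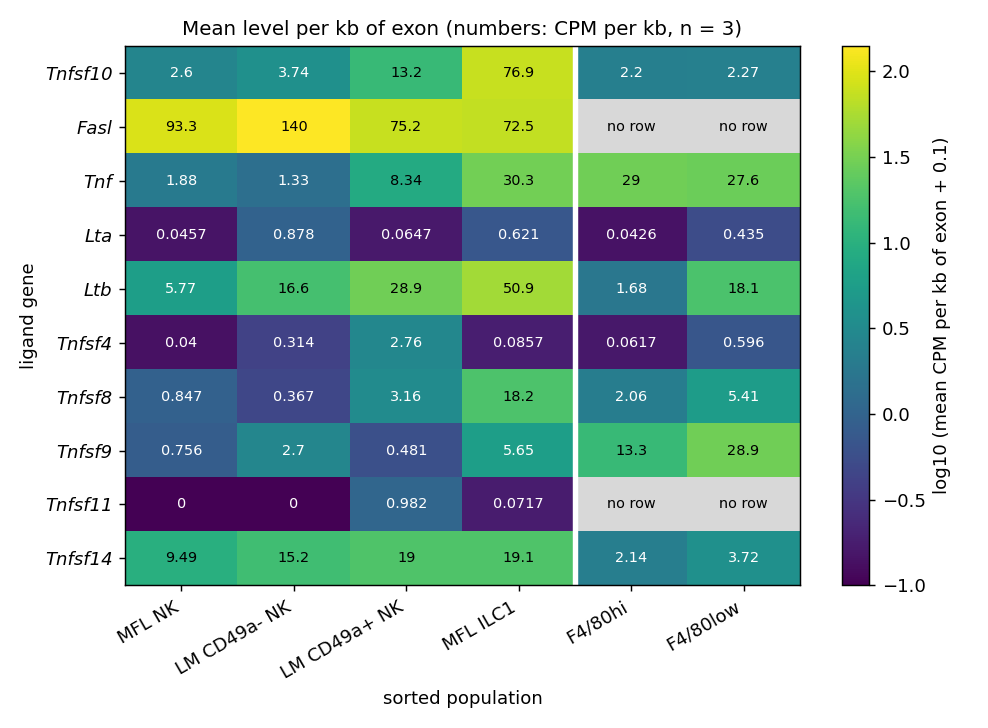
Mean level of each ligand gene in CPM per kb of exon (numbers in the cells, mean of 3 libraries) in the 4 lymphocyte and 2 macrophage populations, with color on a log10 scale after adding 0.1. Gray cells have no row in the macrophage table, and the white line parts the 2 tables, which were made with different kits and are not compared in level. Fasl leads the NK columns, Tnfsf10 and Fasl lead MFL ILC1, and Tnf and Tnfsf9 lead both macrophage columns.

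Among the genes whose log2 CPM followed Tnfsf10 most closely over the 12 lymphocyte libraries, of 9774 genes with at least 5 CPM on average, were Gm36723 (Pearson r = 0.954, Spearman rho = 0.895), Abi3 (r = 0.947, rho = 0.895), Sorl1 and Prrt1. Gm36723 averaged 38.6 CPM in MFL NK, 43.4 in LM CD49a- NK, 97.4 in LM CD49a+ NK and 667 in MFL ILC1. The 12 points fall into 4 populations and share their libraries, so the values describe a common order of the populations, and no p is given.

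**Figure D3:**
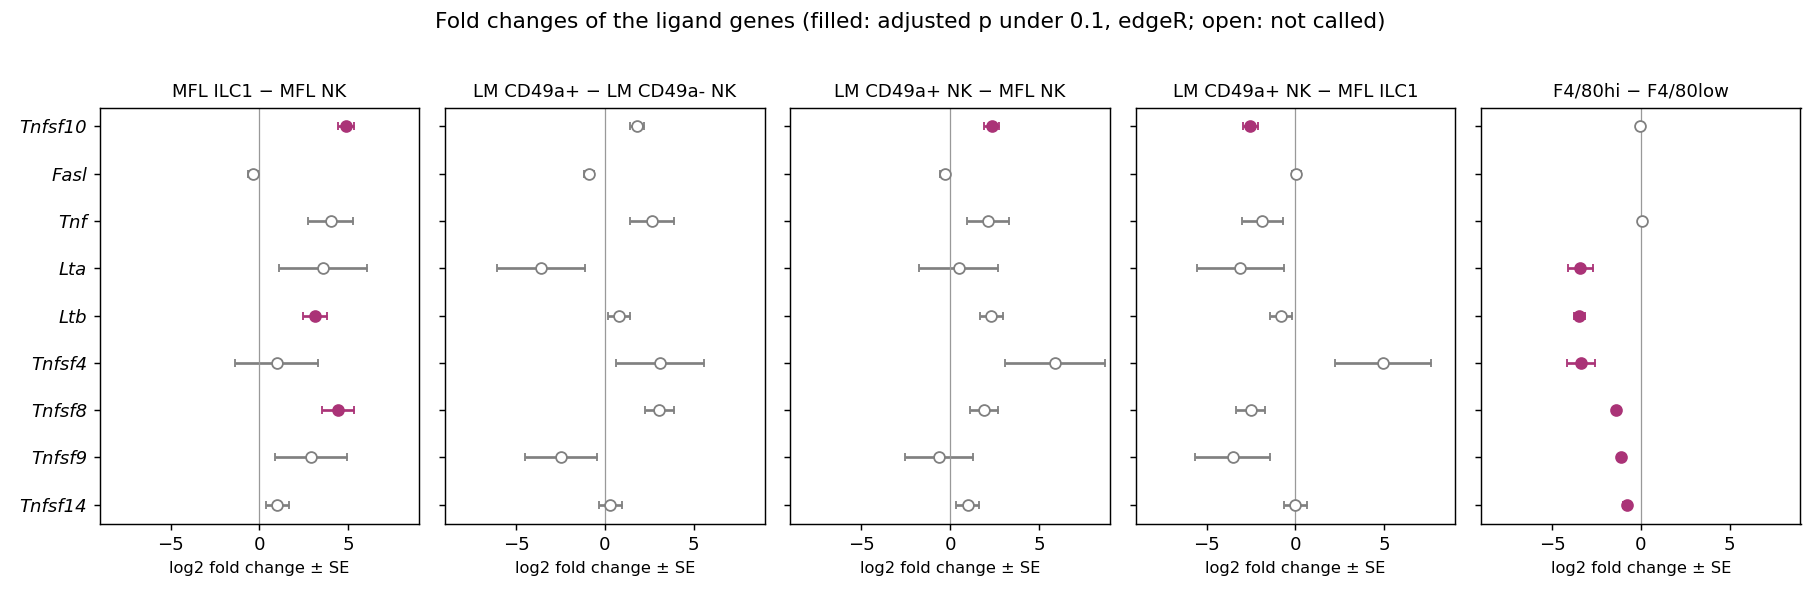
Log2 fold change ± SE (x axis) of the 9 tested ligand genes (y axis) in 4 lymphocyte contrasts and the macrophage contrast, from edgeR. Filled points were called at an adjusted p under 0.1 and open points were not. Tnfsf10 was called in 3 of the lymphocyte panels, and 6 ligand genes were called lower in F4/80hi MAM, where Tnfsf10 and Tnf sit near 0. In that macrophage contrast 27.1% of all 13759 genes were called lower.

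The partners of the ligands were followed with lists of 14 receptors, 8 other TNF superfamily ligands, 21 shedding and signalling genes and 20 NF-κB response genes. Of the 11 receptors tested in lymphocytes, 2 were called in 1 contrast, both higher in LM CD49a+ NK than in MFL ILC1: Tnfrsf9 (4-1BB), at 157 against 63.2 CPM (1.31 ± 0.33, adjusted p = 0.0437), and Tnfrsf1b, a TNF receptor, at 344 against 166 CPM (1.05 ± 0.31, adjusted p = 0.0963). In that contrast, where 3.58% of all genes were called in either direction, 5 of 19 NF-κB response genes were also higher and none was lower, with the smallest adjusted p for Nfkbia (1.98 ± 0.45, adjusted p = 0.0228), an inhibitor induced by the pathway, Nfkb2 (1.43 ± 0.36, adjusted p = 0.0445) and Nfkbiz (2.21 ± 0.56, adjusted p = 0.0454). The median over the 19 was 1.05 and that over all genes was -0.07. This list summed to 2853 to 12813 CPM in LM CD49a+ NK, overlapping the 2882 to 3536 CPM of MFL ILC1, and in the same contrast 3 of 18 immediate-early and heat-shock genes and all 3 monocyte genes were called higher. Their part in these values was not tested.

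In the remaining lymphocyte contrasts none of the receptor, other ligand, shedding and signalling or NF-κB response genes was called by edgeR's test, the 1 tool run on these lists. At an unadjusted p under 0.05 stood 5 of their 51 tested genes between MFL ILC1 and MFL NK, 7 within LM, 10 in LM CD49a+ NK against MFL NK, 19 in LM CD49a- against MFL NK and 1 for the difference of the 2 steps. Of all 13594 genes tested, 1138, 1579, 1324, 914 and 1183 stood under it in the same order. The smallest adjusted p-values between MFL ILC1 and MFL NK were those of Ikbkb (0.424), Ripk1 (0.596) and Adam17 (0.639), the sheddase of TNF, and of Nfkbia (0.266), Ccl3 (0.511) and Nfkbib (0.797). Within LM they were those of Birc2 (0.283), Traf1 and Chuk (both 0.404), and of Ccl3 (0.283), Ccl4 (0.366) and Nfkbie (0.442). For LM CD49a+ NK against MFL NK they were those of Birc3 (0.547), Map3k14 (0.669) and Traf1 (0.732), and of Ccl3 (0.103), Nfkb2 (0.300) and Nfkb1 (0.323). LM CD49a- against MFL NK had Traf1 (0.286), Birc3 (0.297) and Birc2 (0.699), and Nfkb2 (0.221), Nfkbid (0.243) and Nfkbie (0.274). All 19 tested shedding and signalling genes in LM CD49a+ NK against MFL ILC1 stayed above the threshold too, with Traf1 (0.180), Birc3 (0.266) and Ikbkb (0.363) lowest. For the difference of the 2 steps the lowest were Birc2 (0.309), Ripk1 (0.719) and Adam10 (0.799), and Ccl4 (0.666), Bcl2a1b (0.683) and Cxcl10 (0.715).

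In the macrophages, the contrast of F4/80hi with F4/80low cells gave 6 of the 8 ligand genes lower in F4/80hi and none higher. The background in this contrast was high, with 54.9% of all 13759 genes called in either direction and 27.1% of all 13759 called lower in F4/80hi. The median of the 8 ligand genes was -1.26 and that of all genes was 0.01. The table had been filtered before deposit, since its lowest gene total was 37, and Fasl and Tnfsf11 have no row in it.

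Ltb was at 4.10, 1.42 and 2.30 CPM in F4/80hi and at 29.0, 32.2 and 22.7 CPM in F4/80low MAM, a change of -3.45 ± 0.33 (adjusted p = 7.98e-05). Tnfsf8 was at 8.42, 7.83 and 7.36 CPM against 19.8, 24.5 and 17.7 CPM (-1.39 ± 0.15, adjusted p = 0.00013). Tnfsf9 was at 15.9, 21.8 and 15.3 CPM against 42.3, 32.5 and 40.6 CPM (-1.12 ± 0.16, adjusted p = 0.000684). The F4/80low libraries stood above all F4/80hi libraries for each of these ligands. Tnfsf14 was at 4.68, 3.40 and 4.05 CPM against 7.19, 5.94 and 7.96 CPM (-0.80 ± 0.20, adjusted p = 0.0104), also without overlap. Lta and Tnfsf4 were scarce, with 3, 2 and 0 reads of Lta in F4/80hi against 21, 25 and 13 in F4/80low (-3.40 ± 0.70, adjusted p = 0.00439) and 6, 2 and 0 reads of Tnfsf4 against 49, 19 and 24 (-3.37 ± 0.81, adjusted p = 0.00904).

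**Figure D4:**
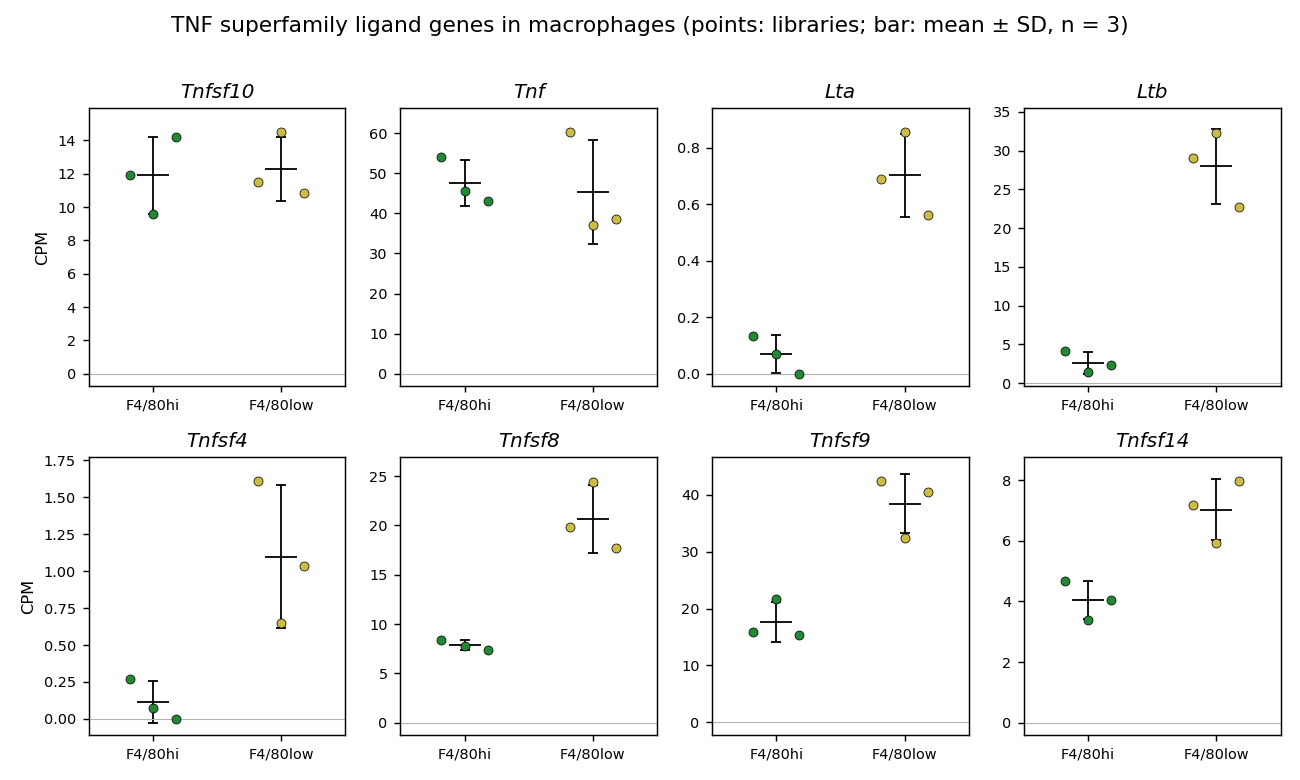
Level of the 8 ligand genes of the macrophage table in CPM (y axis, linear, its own scale per gene) in F4/80hi and F4/80low MAM (x axis). Points are libraries and bars are mean ± SD of 3 libraries. The 2 populations overlap for Tnfsf10 and Tnf and are apart for the other 6 genes, with F4/80low above. How many of all 13759 genes were apart was not counted, and 54.9% of them were called in this contrast.

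Tnfsf10 and Tnf were not called between the macrophage populations. Tnfsf10 was at 11.9, 9.57 and 14.2 CPM in F4/80hi and 11.5, 14.5 and 10.9 CPM in F4/80low (-0.05 ± 0.18, adjusted p = 0.855). Tnf was at 54.0, 45.6 and 43.2 CPM against 60.2, 37.1 and 38.5 CPM (0.07 ± 0.19, adjusted p = 0.780). Both pairs of groups overlapped. Without replicate 1 of F4/80low, the library with the highest Tnf value, Tnf was called higher in F4/80hi by 0.32 (adjusted p = 0.0655). Per kb of exon, Tnf (29.0 ± 3.48) led in F4/80hi ahead of Tnfsf9 (13.3 ± 2.67), and in F4/80low Tnfsf9 (28.9 ± 3.95) and Tnf (27.6 ± 7.89) overlapped at the top.

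The receptors split in direction between the macrophage populations. Higher in F4/80hi was Tnfrsf11a (RANK), at 171 against 94.0 CPM (0.86 ± 0.10, adjusted p = 0.000259). Also higher were Tnfrsf10b (DR5), at 2.27 against 1.27 CPM (0.84 ± 0.36, adjusted p = 0.0892), and Tnfrsf22, at 5.17 against 3.53 CPM (0.55 ± 0.23, adjusted p = 0.0761). Tnfrsf10b was low in both populations, with an SD of 1.00 CPM in F4/80hi and 0.06 CPM in F4/80low. Lower were Tnfrsf9 (-3.33 ± 0.30), Tnfrsf4 (-2.46 ± 0.39), Tnfrsf8 (-1.96 ± 0.31), Tnfrsf23 (-1.17 ± 0.31), Fas (-1.12 ± 0.15) and Tnfrsf1b (-0.91 ± 0.15), with adjusted p-values of 5.88e-05 to 0.0155. So 9 of 13 tested receptors were called, 3 higher and 6 lower, where 54.9% of all genes were called and 27.1% were lower, and nothing particular to the receptors is read from this count. Among the 4 other ligands with a row, Tnfsf13b (BAFF), a B cell survival factor, was at 30.1 against 8.77 CPM (1.78 ± 0.19, adjusted p = 0.000168) and Tnfsf12 (TWEAK) at 71.4 against 46.2 CPM (0.63 ± 0.12, adjusted p = 0.0033).

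Of the 20 NF-κB response genes 16 were lower and 1 higher in F4/80hi, against 27.1% of all genes lower and 54.9% called in either direction, with the smallest adjusted p for Nfkbie (-1.50 ± 0.11, adjusted p = 2.37e-05), Relb (-1.65 ± 0.13, adjusted p = 3.29e-05) and Nfkb2 (-1.17 ± 0.09, adjusted p = 3.45e-05). Of the 21 shedding and signalling genes 12 were lower and 4 higher, against the same shares of all genes, led by Traf1, an adaptor of TNF receptors (9.16 against 134 CPM, -3.88 ± 0.18, adjusted p = 2.86e-06), Ikbkb (-1.33 ± 0.08, adjusted p = 7.65e-06) and Map3k14 (-1.88 ± 0.14, adjusted p = 2.34e-05). The list medians were -0.96 and -0.33.

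Markers of other cells differed between the macrophage populations too. The 5 dendritic cell genes summed to 265 to 527 CPM in F4/80low and 7.58 to 13.7 CPM in F4/80hi, with Ccr7 at 211 against 3.27 CPM, Flt3 at 106 against 2.09 and Zbtb46 at 55.1 against 1.77. The 3 monocyte genes summed to 1501 to 1509 CPM against 431 to 541, and 5 genes of the NK and ILC1 list to 16.2 to 20.7 CPM against 1.52 to 2.61. The T cell list overlapped, at 8.91 to 25.9 CPM against 6.52 to 15.4. The 3 neutrophil genes with a row summed to 4.58 to 57.6 CPM in F4/80low against 0.0354 to 0.540, and all 3 were called. For 1 epithelial gene the values were 7.70 to 17.2 against 0.162 to 0.360 CPM, also called. The 4 B cell genes went the other way, at 6.27 to 17.2 CPM in F4/80low and 18.1 to 33.4 in F4/80hi, with 1 called higher in F4/80hi. The 18 immediate-early and heat-shock genes summed to 13103 to 17782 CPM in F4/80low and 6331 to 8982 in F4/80hi, and 14 of them were called lower in F4/80hi. The part of these cells and of this list in the ligand values was not tested.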

How the data were processed

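Gene counts of 12 lymphocyte and 6 macrophage libraries were analysed as deposited, in 1 fit per table. Per the labels and the study's methods, the authors trimmed reads with Trim Galore and made the estimated counts of the lymphocyte table with Salmon 1.5.0 on GRCm39 transcripts (GENCODE M27), summed to genes, from a stranded total RNA kit. The macrophage libraries came from a poly(A) kit, and the submitters' processing notes name Salmon 1.10.0 and R 4.3.1 for them without a role. The deposited estimated counts were already whole numbers and were rounded again without effect. A total RNA kit also counts RNA without poly(A), so levels were not compared between tables.

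Symbols came from GENCODE M39 by unversioned Ensembl ID, which matched 53700 of 54309 and 13726 of 13759 IDs. Low genes were removed with filterByExpr (none in the macrophage table), libraries scaled by TMM, and contrasts tested with edgeR 4.0.16 (quasi-likelihood test, the method used before version 4, R 4.3.3) with Benjamini-Hochberg adjustment over all genes tested, called under 0.1. CPM of 0 means under 3 reads at most, a floor of 0.209 to 0.341 CPM in lymphocytes and 0.093 to 0.141 in macrophages, for counting error only. Alternatives were DESeq2 1.42.0, limma-voom 3.58.1, other scaling, no filter, each library left out, each contrast fitted alone, a replicate block and, added after the data were seen, edgeR's current method. Procedures were tested on simulated data.

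All 10 ligand genes are described. Receptors and other ligands are named when called in at least 1 contrast, and of the signalling and NF-κB lists the 3 smallest adjusted p-values per contrast are named. Genes most like Tnfsf10 are named by Pearson r, and 1 of the 5 is not reported here. The ligand genes and all 16 lists were chosen with earlier results of these data known. Replicate numbers are not stated to mark a shared animal or day. No column of either table was left out.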

Additional observations from a re-analysis of the deposited data

Results flagged for a closer look

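The difference between the CD49a+ to CD49a- NK step in LM and the ILC1 to NK step in MFL was larger than the spread between libraries for Tnfsf10, at -3.07 ± 0.57 on the log2 scale (edgeR, adjusted p = 0.0165). Tnfsf10 averaged 71.2 against 20.2 CPM in the LM pair and 416 against 14.1 CPM in the MFL pair, with 3 libraries in each group. It was called under each of the 18 alternatives tried, with values from -3.46 to -2.26 and adjusted p-values from 4.28e-09 to 0.0563. The site, the dissociation and the CD49b gate of the MFL cells go with this difference and cannot be told apart. With 3 libraries per group, no test for a single library apart from its group was run.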

How the results depend on the processing

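The called ligand genes kept their direction throughout. Of 836 values recomputed for the 62 tested gene and contrast pairs, 777 kept their direction and their side of the threshold, 31 newly passed it, 1 no longer did and 27, in 13 pairs that the main test did not call, changed sign. The number of ligand genes called moved as follows, and the number of all genes called, given below, moved under the same settings. MFL ILC1 against MFL NK went from 3 to 8 with limma-voom and to 4, with Tnf added, without a filter, with DESeq2, with edgeR's current method and when these groups were fitted alone. LM CD49a+ against CD49a- NK went from 0 to 2 without a filter, 3 with DESeq2 and 1 with edgeR's current method, and ranged from 0 to 1 with a library left out, with 1 without each LM CD49a- NK library in turn (Tnfsf10, Fasl or Tnfsf8). LM CD49a+ NK against MFL NK went from 1 to 2 without a filter, 2 with DESeq2, 3 with limma-voom and 2 with edgeR's current method, and ranged from 0 (without MFL NK replicate 3) to 1. LM CD49a+ NK against MFL ILC1 went from 1 to 2 without a filter, 2 with DESeq2, 3 with limma-voom, 3 with edgeR's current method and 2 when these groups were fitted alone. LM CD49a- against MFL NK stayed at 0, the difference of the 2 steps at 1 and the macrophages at 6 under each alternative, except for 7 without F4/80low replicate 1. The cause of these moves was not tested.

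The background moved as well: genes called within LM went from 19 to 200 without a filter, 543 with DESeq2, 84 with edgeR's current method and 0 with limma-voom (746 at an unadjusted p under 0.05). With 1 library left out, genes called within LM ranged from 5 (without LM CD49a+ NK replicate 1) to 267 (without LM CD49a- NK replicate 3). In LM CD49a- against MFL NK, with 10 called by the main test, the range was 1 to 110, highest without that same CD49a- library. Between MFL ILC1 and MFL NK the genes called went from 416 to 667 with DESeq2, 703 with edgeR's current method and 2645 with limma-voom. They were 599 without a filter and 1228 when these groups were fitted alone. For LM CD49a+ NK against MFL NK they went from 88 to 371 without a filter, 365 with DESeq2 and 307 with limma-voom. With edgeR's current method they were 222. Against MFL ILC1 they went from 486 to 774, 1010, 935 and 959 in the same order, and to 476 when fitted alone.

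Sign changes with limma-voom were -0.21 for Tnfsf4 in MFL ILC1 against MFL NK, -0.16 for Tnfsf14 within LM, -0.15 for Lta in LM CD49a+ NK against MFL NK and 0.17 for Tnf in the difference of the 2 steps. With 1 library left out, Tnfsf4 ranged from -2.99 to 3.93 in MFL ILC1 against MFL NK, from -2.98 to 5.76 in LM CD49a- against MFL NK and from -0.83 to 7.92 in the difference of the 2 steps. Tnfsf14 ranged from -0.42 to 0.99 within LM, from -0.0056 to 1.12 in LM CD49a- against MFL NK and from -0.75 to 0.35 in LM CD49a+ NK against MFL ILC1. Lta ranged from -2.97 to 3.42 in LM CD49a+ NK against MFL NK. Tnf ranged from -2.31 to 0.63 in LM CD49a- against MFL NK, from -2.50 to 0.45 in the difference of the 2 steps and from -0.055 to 0.32 in the macrophages. Tnfsf10 ranged from -0.29 to 0.86 in LM CD49a- against MFL NK and from -0.20 to 0.091 in the macrophages, and Fasl from -0.032 to 0.13 in LM CD49a+ NK against MFL ILC1.

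For equal replicate numbers the deviations from the group means correlated at -0.05 to 0.10 in 18 lymphocyte pairs and at -0.01 to 0.17 in 3 macrophage pairs, which does not pair the libraries. A replicate block left each count of called ligand genes as it was, with 24 instead of 19 genes called in all within LM, and gave -1.16 for Tnfsf4 in MFL ILC1 against MFL NK. Lta and Tnfsf4 had few reads in the lymphocytes, where several libraries held 0 reads of them. There edgeR's test called neither and limma-voom called Lta in 1 contrast and Tnfsf4 in 2, while both were called in the macrophages. The part of depth in this was not tested. Tnfsf11 was not tested.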
